A study of Homo sapiens with 64 samples.

Results

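The genes of cholesterol and fatty acid synthesis, with the genes that control them and that carry sterol out of the cell or its lysosomes, were followed through a time course of 2 asthma drugs in BEAS-2B cells. The members were taken by symbol from a list of 32 genes, with the brightest probe set for each. Of these, 30 had a probe set annotated with their symbol alone, out of 18132 genes measured. The cells, which derive from human bronchial epithelium and were immortalised, were kept without serum overnight and then left untreated or given budesonide at 100 nM, formoterol at 10 nM, or both together at those concentrations. Budesonide is an inhaled glucocorticoid that acts through the glucocorticoid receptor, and formoterol is a long-acting agonist of the beta-adrenergic receptor that raises cyclic AMP. Cells were sampled at 1, 2, 6 and 18 h, which gives 16 groups of 4 arrays, 64 in total, described by the submitters as independent determinations. All groups share a single cell line without serum, and the labels name no vehicle for the untreated cells.

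Cholesterol is built from acetyl-CoA through the mevalonate pathway, which ends in farnesyl diphosphate, and then through squalene, lanosterol and a series of demethylation, reduction and isomerisation steps. Most genes of this route are driven by SREBP-2, the product of SREBF2, and many genes of fatty acid synthesis by SREBP-1, the product of SREBF1. When sterols are plentiful, INSIG1 and INSIG2 hold the SREBPs and their escort SCAP in the endoplasmic reticulum, and because INSIG1 is itself an SREBP target its mRNA is commonly read together with those of the enzymes. Oxysterols also activate the LXR receptors, which raise ABCA1, ABCG1 and MYLIP and take part in the control of SREBF1. SREBPs bind sterol response elements and usually need neighbouring factors such as NF-Y, which binds the CCAAT box, and Sp1.

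The promoters of a few members are shown. MVK, MSMO1, HMGCS1 and INSIG1 fell with formoterol and the combination at 6 h. SREBF2 was not called in any comparison with untreated cells. NPC1 and ABCA1 rose, and MYLIP rose at 1 h but fell with budesonide at 2 and 6 h. Each sequence is the 200 bases before a RefSeq gene start in GRCh38.p14, written 5′ to 3′ on the strand of the gene. Capitals mark CCAAT boxes in either orientation (CCAAT or ATTGG) and the sterol response element searched, TCACNCCAC.
MVK: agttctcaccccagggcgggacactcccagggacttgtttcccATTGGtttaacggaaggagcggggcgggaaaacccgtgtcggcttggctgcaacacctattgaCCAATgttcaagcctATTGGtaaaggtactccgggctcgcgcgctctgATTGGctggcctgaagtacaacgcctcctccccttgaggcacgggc
MSMO1: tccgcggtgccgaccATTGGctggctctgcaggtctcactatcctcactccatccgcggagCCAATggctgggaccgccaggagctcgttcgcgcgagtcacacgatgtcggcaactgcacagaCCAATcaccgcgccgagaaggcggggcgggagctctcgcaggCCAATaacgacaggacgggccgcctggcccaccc
HMGCS1: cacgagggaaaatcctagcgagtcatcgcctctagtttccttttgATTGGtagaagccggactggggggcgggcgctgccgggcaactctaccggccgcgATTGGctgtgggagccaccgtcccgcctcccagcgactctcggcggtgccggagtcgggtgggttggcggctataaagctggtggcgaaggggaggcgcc
INSIG1: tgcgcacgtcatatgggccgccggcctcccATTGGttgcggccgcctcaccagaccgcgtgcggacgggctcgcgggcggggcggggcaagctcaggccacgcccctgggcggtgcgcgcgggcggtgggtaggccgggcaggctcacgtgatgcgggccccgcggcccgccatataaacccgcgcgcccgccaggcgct
SREBF2: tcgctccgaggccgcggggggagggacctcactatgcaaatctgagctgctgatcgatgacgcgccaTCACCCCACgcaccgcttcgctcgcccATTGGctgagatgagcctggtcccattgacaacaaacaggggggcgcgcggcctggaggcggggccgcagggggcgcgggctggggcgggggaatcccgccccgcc
NPC1: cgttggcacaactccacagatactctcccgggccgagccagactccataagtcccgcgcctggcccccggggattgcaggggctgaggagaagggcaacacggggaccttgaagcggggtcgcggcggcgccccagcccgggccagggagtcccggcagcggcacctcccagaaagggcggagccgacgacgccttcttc
ABCA1: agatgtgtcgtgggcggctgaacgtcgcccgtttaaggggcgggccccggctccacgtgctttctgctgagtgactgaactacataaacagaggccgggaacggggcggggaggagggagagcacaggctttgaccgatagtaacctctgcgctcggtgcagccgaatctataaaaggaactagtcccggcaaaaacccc
MYLIP: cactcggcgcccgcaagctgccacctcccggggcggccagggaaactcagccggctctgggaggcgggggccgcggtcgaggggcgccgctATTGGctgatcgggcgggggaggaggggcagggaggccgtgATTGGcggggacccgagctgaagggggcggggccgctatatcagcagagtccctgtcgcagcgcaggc
MVK lies at chr12:109573594-109573793, plus strand, and MSMO1 at chr4:165327469-165327668, plus strand. HMGCS1 has 2 starts in the table, of which the first listed is shown, at chr5:43313413-43313612, minus strand. INSIG1 lies at chr7:155297678-155297877, plus strand, and SREBF2 at chr22:41832905-41833104, plus strand. NPC1 lies at chr18:23586507-23586706, minus strand, ABCA1 at chr9:104928156-104928355, minus strand, and MYLIP at chr6:16128886-16129085, plus strand. The printed stretches of MVK and MSMO1 each held 4 CCAAT boxes, those of HMGCS1 and MYLIP held 2 each, those of INSIG1 and SREBF2 held 1 each, and those of NPC1 and ABCA1 held 0. The stretch before the other HMGCS1 start in the table held 0 as well, and that of TM7SF2, which rose at 18 h, held 1.

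In windows from 250 bases before to 50 after the start, on both strands, 26 of the 30 members could be searched. CCAAT was present in 20 of the 26 (76.9%), against 42.4% of 14425 measured genes and 34.6% of 35116 windows in the table. All 15 searched members that fell with the combination at 6 h held a CCAAT box, as did 5 of the 11 others. A gene counted as holding a motif where any of its starts in the table did, so not every start of these members holds the box. The split rests on calls from these same data. GGGCGG, the Sp1 box, was present in 96.2% of members against 65.7% of measured genes. The sterol response element TCACNCCAC occurred in 1 member, SREBF2 (3.85%), against 1.55% of measured genes. A shorter form without its first letter, CACNCCAC, chosen after the longer one was seen to be rare and contained in it, occurred in 7 members (26.9%), namely ABCA1, ACACA, IDI1, INSIG1, SC5D, SCD and SREBF2, against 8.03% of measured genes. The cyclic AMP response element TGACGTCA occurred in 1 member, FADS1, against 3.11% of measured genes, and its core TGACG, which the full element contains, in 12 (46.2%) against 35% of measured genes. The glucocorticoid response element and the LXR element, searched as strict consensus motifs, had 0 matches among members, which says only that those letters are not in these windows. They occurred in 0% and 0.0139% of measured genes, too rarely for the absence to set the members apart.

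Values are log2 intensities, so a difference of 1 is a doubling, and they are compared between groups for the same probe set and not between genes. A gene was called changed where limma gave a two-sided p under 0.05 after Benjamini-Hochberg adjustment over all 18132 genes. Every adjusted p and standard error (SE) below is from that fit, which has no replicate block, unless another setting is named. All treatments at a given time were compared with the same 4 untreated arrays, so the comparisons are not independent. TSC22D3, a glucocorticoid target, was higher by 5.20 ± 0.11 (SE) with budesonide at 6 h, and PDE7B, a cyclic AMP target, by 4.0 ± 0.17 with formoterol at 6 h. With formoterol PDE7B was not called at 1 or 2 h (−0.30 and 0.13) and was higher by 1.82 at 18 h. The epithelial keratins KRT8 and KRT18 averaged 9.18 and 10.97, whereas EPCAM, CDH1, KRT5, KRT14 and KRT19 averaged 2.50 to 4.36, under the median probe set value of 4.9, and CLDN1 and KRT7 lay above it at 7.93 and 5.57. Of 9 measured epithelial markers, 2 were higher and 2 lower with budesonide at 6 h (6.12% and 8.12% of all genes). At 18 h 1 was higher and 4 lower (8.56% and 9.78% of all genes). With the combination 1 was higher and 3 lower at 6 h (8.61% and 9.95% of all genes). At 18 h these were 2 and 4 (10.3% and 10.7% of all genes). With formoterol 0 were called by limma at either time, where 4.81% and 1.11% of all genes were called. Group means of KRT8 ran from 7.85 to 9.58, and the part of these shifts in the results was not tested. The 9 fibroblast and smooth muscle markers averaged 1.74 to 8.68, with COL1A1 and PDGFRB at 8.35 and 8.68 and DCN, LUM and PDGFRA under the lower quartile of 3.02. The 6 measured leukocyte markers averaged 1.97 to 5.75, with PTPRC, CD14 and LYZ under that quartile and CD79A and CD68 at 4.9 and 5.75. In a bulk array a lower value from fewer cells of a kind and a lower value from less RNA per cell cannot be told apart.

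With each treatment several of the synthesis genes fell and the sterol transport genes NPC1 and ABCA1 rose, mostly at 6 h. Formoterol lowered 14 of the 30 members at 6 h, where it lowered 2.06% of all genes. Budesonide lowered 8 at 6 h and 8 at 18 h, where it lowered 8.12% and 9.78% of all genes. The combination lowered 17 at 6 h and 12 at 18 h, where it lowered 9.95% and 10.7% of all genes. The median member differed from untreated by −0.13 with budesonide, −0.23 with formoterol and −0.35 with the combination at 6 h, where the medians of all genes were 0.03, −0.01 and 0.

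**Figure D1:**
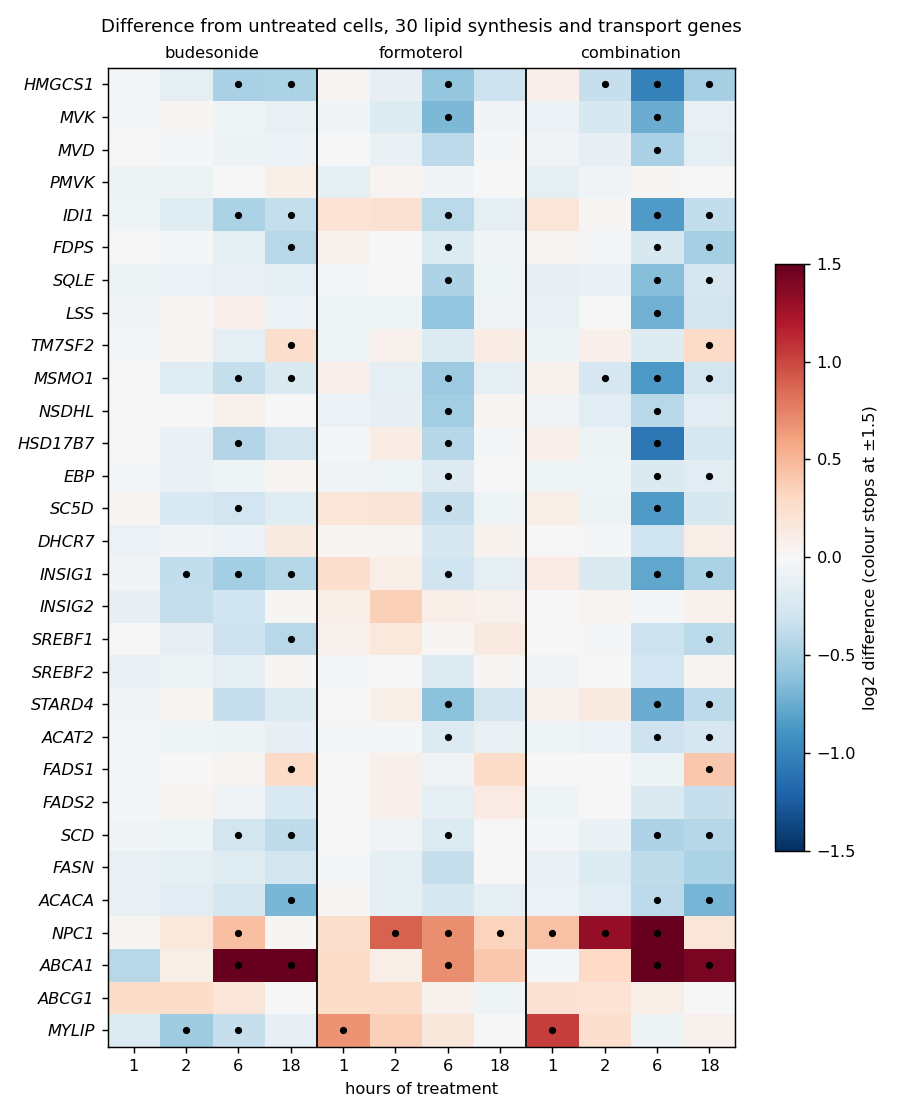
Difference from untreated (log2, colour, which stops at 1.5 in either direction) for the 30 members (vertical) under budesonide, formoterol and the combination at 1, 2, 6 and 18 h (horizontal), with a dot where the adjusted p is under 0.05. At 6 h the dots lie on 10 members with budesonide, 16 with formoterol and 19 with the combination, and at 18 h on 11, 1 and 15.

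Formoterol at 6 h lowered 14 members and raised 2, where 2.06% of all genes were called lower, 2.76% higher and 4.81% in either direction. From mevalonate to cholesterol, MVK, IDI1, FDPS, SQLE, MSMO1, NSDHL, HSD17B7, EBP and SC5D fell, as did HMGCS1, which makes the precursor of mevalonate. ACAT2, an acetyl-CoA acetyltransferase, STARD4, a sterol carrier protein, INSIG1 and the desaturase gene SCD also fell.

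MVK, the mevalonate kinase, was at 7.38, 7.33, 7.25 and 7.24 in untreated cells at 6 h. It was at 6.71, 6.69, 6.43 and 6.68 with formoterol and at 7.42, 7.2, 7.24 and 7.09 with budesonide. The formoterol arrays all lay below the untreated ones, whereas the budesonide arrays overlapped them. The formoterol difference was −0.67 ± 0.08 (SE, adjusted p = 9.92e-09).

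MSMO1, the methylsterol monooxygenase that starts removal of the methyl groups from lanosterol derivatives, was at 12.12, 12.02, 12.05 and 12.12 in untreated cells. With formoterol it was at 11.49, 11.45, 11.53 and 11.63, below every untreated array, a difference of −0.55 ± 0.06 (adjusted p = 7.72e-10). NSDHL, which acts on the same carbon, was at 9.60, 9.40, 9.55 and 9.48 in untreated cells and at 9.04, 8.87, 8.88 and 9.15 with formoterol. The groups did not overlap and the difference was −0.52 ± 0.07 (adjusted p = 3.32e-07). SQLE, squalene epoxidase, was at 10.90, 10.97, 11.10 and 11.14 in untreated cells and at 10.59, 10.37, 10.57 and 10.77 with formoterol. Again no array overlapped, and the difference was −0.46 ± 0.08 (adjusted p = 7.89e-05).

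STARD4 had the wider spread, at 7.60, 7.87, 8.20 and 8.03 in untreated cells and 7.11, 6.94, 7.62 and 7.57 with formoterol. The groups overlapped at their edge and the difference was −0.61 ± 0.14 (adjusted p = 0.00163). LSS, lanosterol synthase, was at 8.55, 8.57, 8.61 and 8.47 in untreated cells and at 8.15, 7.92, 7.97 and 7.82 with formoterol. These groups did not overlap, yet the difference of −0.58 ± 0.21 was not called (adjusted p = 0.128), and MVD, the mevalonate diphosphate decarboxylase, stood likewise at −0.39 ± 0.14 (adjusted p = 0.123). Both were called when the 4 arrays numbered 3 at 2 h, described further on, were left out of the fit. Their adjusted p then was 2.43e-06 and 0.000298, and the members called with formoterol at 6 h came to 18, with 5.28% of all genes called.

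The remaining formoterol calls at 6 h were smaller. FDPS (−0.21), EBP (−0.19) and SCD (−0.20) each lost their call without untreated replicate 3 (−0.20, −0.17 and −0.19) or 4 (−0.17, −0.15 and −0.18), or without formoterol replicate 2 (−0.13, −0.13 and −0.16) or 3 (−0.20, −0.16 and −0.19). ACAT2 (−0.21) lost its call without untreated replicate 3 (−0.19) or 4 (−0.18) or formoterol replicate 2 (−0.17). HSD17B7 (−0.43) lost it without untreated replicate 2 (−0.37), SC5D (−0.35) without untreated replicate 1 (−0.28) or 2 (−0.29), and INSIG1 (−0.30) without formoterol replicate 1 (−0.27). Without all arrays numbered 2, the count of members called was 6, and 8 of the 16 calls held when each array was left out in turn.

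Budesonide at 6 h lowered 8 members and raised 2, where 8.12% of all genes were called lower, 6.12% higher and 14.2% in either direction. The sterol genes that fell were HMGCS1, IDI1, MSMO1, HSD17B7 and SC5D, together with INSIG1, SCD and MYLIP. MVK, SQLE and NSDHL were not called, at −0.06, −0.11 and 0.06.

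INSIG1 was at 12.08, 12.13, 11.97 and 12.09 in untreated cells at 6 h. It was at 11.68, 11.41, 11.50 and 11.64 with budesonide and at 11.66, 11.69, 11.84 and 11.86 with formoterol. Both drugs brought it below every untreated array, by −0.51 ± 0.08 (adjusted p = 6.7e-07) with budesonide and −0.30 ± 0.08 (adjusted p = 0.00958) with formoterol. IDI1, isopentenyl-diphosphate isomerase, was at 10.41, 10.54, 10.44 and 10.63 in untreated cells and at 10.15, 10.03, 9.90 and 10.03 with budesonide. The groups did not overlap and the difference was −0.47 ± 0.08 (adjusted p = 1.35e-05). SC5D, a late desaturase of the pathway, was at 8.82, 8.80, 8.42 and 8.48 in untreated cells and at 8.55, 8.33, 8.24 and 8.24 with budesonide. These groups overlapped and the call (−0.29, adjusted p = 0.0186) was lost without untreated replicate 1 (−0.23) or 2 (−0.23) or without budesonide replicate 3 (−0.26) or 4 (−0.26). Its other probe sets ranged from −0.44 to 0.03 in that comparison.

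The combination at 6 h lowered 17 members and raised 2, where 9.95% of all genes were called lower, 8.61% higher and 18.6% in either direction. None of these 19 overlapped with the untreated arrays, and called or not, 22 members did not overlap, where 18.6% of all genes did not. The 17 were HMGCS1, MVK, MVD, IDI1, FDPS, SQLE, LSS, MSMO1, NSDHL, HSD17B7, EBP, SC5D, INSIG1, STARD4, ACAT2, SCD and ACACA.

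HMGCS1, the HMG-CoA synthase, was at 12.19, 12.03, 11.88 and 12.03 in untreated cells at 6 h, a mean of 12.03 ± 0.13 (SD, n = 4). Budesonide arrays stood at 11.82, 11.50, 11.54 and 11.30, a mean of 11.54 ± 0.21, and formoterol arrays at 11.54, 11.33, 11.39 and 11.56, a mean of 11.45 ± 0.11. Combination arrays stood at 11.08, 11.08, 10.89 and 11.03, a mean of 11.02 ± 0.09. The combination arrays lay below those of either drug alone, which in turn lay below the untreated ones. The differences were −0.49 ± 0.11 with budesonide, −0.58 ± 0.11 with formoterol and −1.01 ± 0.11 with the combination (adjusted p = 2.28e-11), the last a 2.02-fold fall. The other HMGCS1 probe set fell by more, at −0.73, −0.87 and −1.65 in the same comparisons, so the size depends on the probe set.

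HSD17B7, which reduces a keto group during sterol demethylation, showed the same order, on a probe set whose probes can match other transcripts. It was at 7.15, 7.44, 7.2 and 7.33 in untreated cells and at 6.14, 6.39, 6.27 and 6.00 with the combination, with budesonide at 6.87, 7.03, 6.69 and 6.76 and formoterol at 6.82, 6.88, 6.88 and 6.82. The combination difference was −1.08 ± 0.11 (adjusted p = 1.64e-12), a 2.11-fold fall. MSMO1 with the combination was at 11.28, 11.12, 11.21 and 11.25, lower than untreated by −0.86 ± 0.06 (adjusted p = 7.63e-18). SC5D was at 7.86, 7.89, 7.73 and 7.66, and IDI1 at 9.65, 9.53, 9.74 and 9.70, and both differed from untreated by −0.85 ± 0.09 and −0.85 ± 0.08. INSIG1 with the combination was at 11.29, 11.26, 11.27 and 11.30 and differed from untreated by −0.78 ± 0.08 (adjusted p = 1.17e-12).

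MVK differed from this order, since the combination arrays at 6.86, 6.49, 6.55 and 6.34 spanned the formoterol arrays. Its difference from untreated was −0.74 ± 0.08, against −0.67 ± 0.08 with formoterol alone. NSDHL with the combination was at 9.20, 9.30, 8.90 and 8.95, also overlapping formoterol alone, and LSS was at 8.04, 7.90, 7.74 and 7.67, a difference of −0.72 ± 0.21 (adjusted p = 0.0109). The call of MVD (−0.49, adjusted p = 0.00833) was lost without combination replicate 4 (−0.40).

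**Figure D2:**
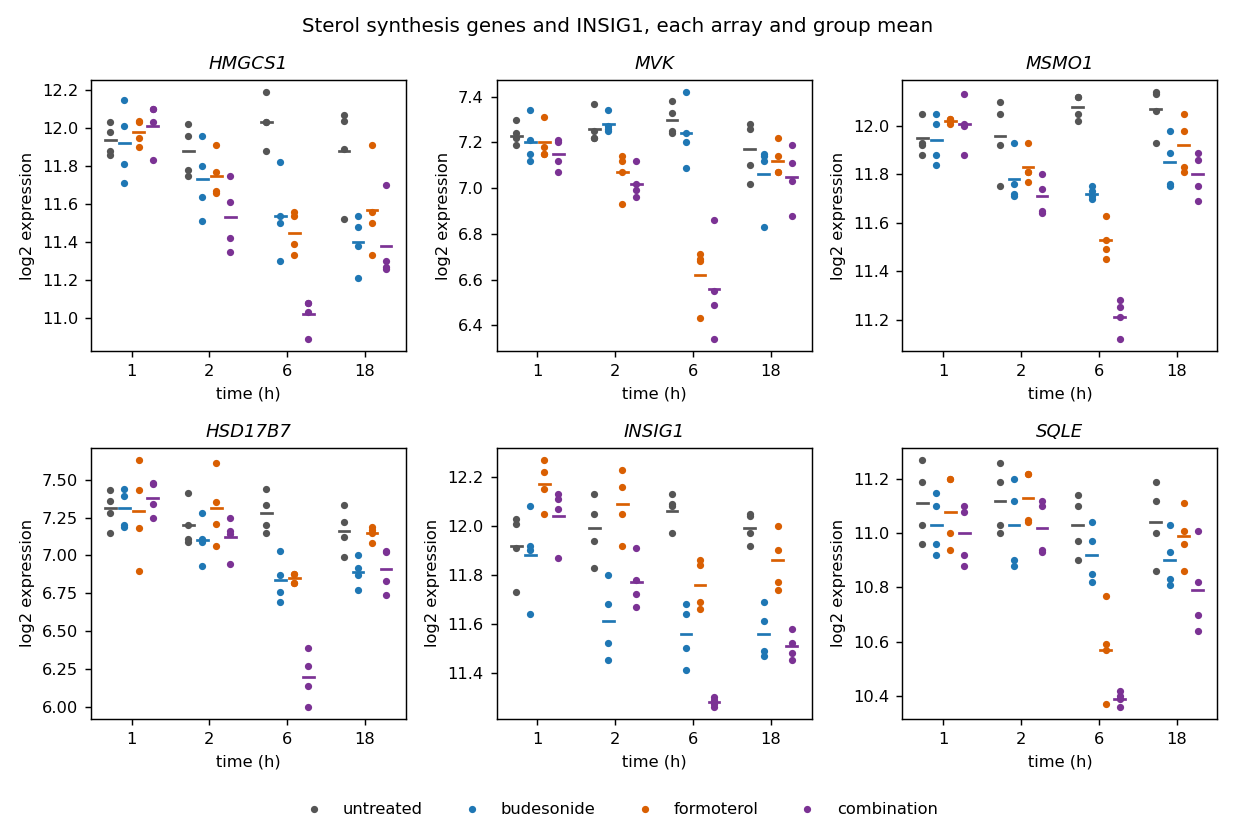
log2 intensity (vertical) of HMGCS1, MVK, MSMO1, HSD17B7, INSIG1 and SQLE on each array at 1, 2, 6 and 18 h (horizontal) by treatment, with a line through the group means. At 6 h the HMGCS1 combination arrays lie from 10.89 to 11.08, below the untreated arrays at 11.88 to 12.19, while the MVK combination arrays share the range of formoterol alone.

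Set directly against each drug alone at 6 h, the combination was lower in 12 members and higher in 2 than budesonide (2.81% of all genes called lower, 3.91% higher and 6.72% in either direction), and lower in 7 and higher in 2 than formoterol (13.4% of all genes called). Against formoterol, the members that were lower were HMGCS1 (−0.43), IDI1 (−0.45), MSMO1 (−0.31), HSD17B7 (−0.65), SC5D (−0.50), INSIG1 (−0.48) and SCD (−0.27). Against budesonide, the lower members were HMGCS1, MVK, IDI1, SQLE, LSS, MSMO1, NSDHL, HSD17B7, SC5D, INSIG1, ACAT2 and SCD, from −0.79 for LSS to −0.19 for SCD. Samples with the same replicate number deviated together in this comparison, and with the number as a block the members called against budesonide rose from 14 to 18, or to 21 with the block set within each time, and the share of all genes called to 10.4% and 14.3%. Of the 14 calls 11 held without each array. Those of ABCA1 (without budesonide replicate 2, 0.59), INSIG1 (without budesonide replicate 1, −0.24, or 4, −0.25) and SCD (without budesonide replicate 1, −0.17, 3, −0.18, or 4, −0.17, or combination replicate 2, −0.14) rested on single arrays.

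The interaction, the amount by which the combination differed from the sum of the separate drug differences, was called for 0 members at 1, 2, 6 and 18 h by limma, where 0.171%, 0.59%, 0.722% and 0.276% of all genes were called. At an unadjusted p under 0.05 there were 2, 3, 1 and 1 members. At 6 h the estimates ran from −0.21 to 0.36. HSD17B7 was at −0.21 (95% interval −0.51 to 0.10), SC5D at −0.21 (−0.47 to 0.04), and NPC1 was highest at 0.36 (0.12 to 0.60, lowest adjusted p of any member at that time 0.231). With a median SE of 0.135, these intervals do not exclude modest departures from additivity in either direction. The estimate for MYLIP at 1 h was 0.58 (0.25 to 0.90), and that call was made without combination replicate 2, when 1 member passed. MYLIP was also called with all arrays when limma had the replicate number as a block over all times (adjusted p = 0.0307). There 0.265% of all genes were called. The block within each time called 1 member at 1 h and 1 at 6 h (0.397% and 2.36% of all genes). Not every same-numbered pair deviated together at those times. At 2 h, where same-numbered samples deviated together, MYLIP (0.42) was called once the replicate number entered as a block nested in time (adjusted p = 0.005, with 1.26% of all genes called), and 0 members with the block over all times.

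**Figure D3:**
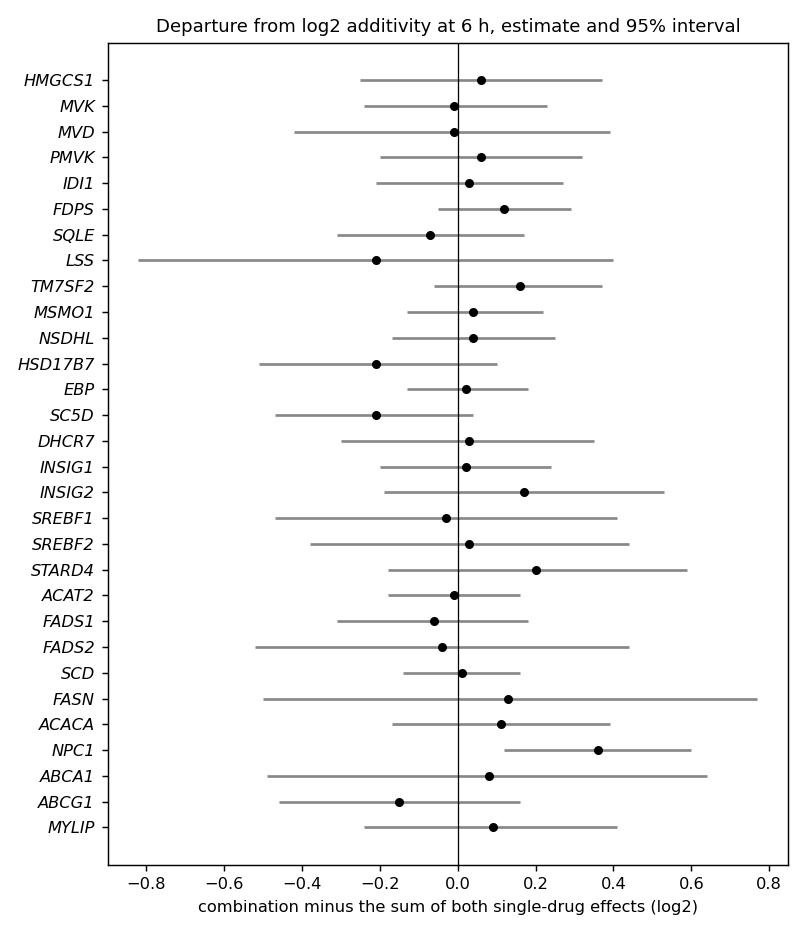
Interaction at 6 h (log2, horizontal: combination minus budesonide minus formoterol plus untreated) for each member (vertical), as the estimate with its 95% interval from the limma fit. Estimates run from −0.21 to 0.36, and none of the 30 passed an adjusted p of 0.05.

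NPC1, which moves cholesterol out of lysosomes, rose with formoterol at 2 h and with every treatment at 6 h. At 2 h it was at 8.46, 8.45, 8.52 and 8.45 in untreated cells and at 9.25, 9.5, 9.35 and 9.34 with formoterol. Budesonide arrays stood at 8.53, 8.64, 8.69 and 8.65, and combination arrays at 9.70, 9.88, 9.72 and 9.84. Formoterol arrays were all above untreated and budesonide arrays, and combination arrays above all of these. The difference was 0.89 ± 0.08 with formoterol (adjusted p = 9.72e-13) and 1.32 ± 0.08 with the combination (adjusted p = 5.71e-20).

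At 6 h NPC1 stood at 8.19, 8.34, 8.36 and 8.50 in untreated cells, at 8.77, 8.56, 8.98 and 8.87 with budesonide and at 9.14, 8.85, 9.16 and 9.04 with formoterol. With the combination it stood at 9.96, 9.63, 9.95 and 9.88, above every other array. It rose by 0.45 ± 0.08 with budesonide, 0.70 ± 0.08 with formoterol and 1.51 ± 0.08 with the combination (adjusted p = 8.05e-23), the last 2.84-fold. By 18 h only formoterol was called (0.33, adjusted p = 0.0284), and that call was lost without untreated replicate 1 (0.27) or 2 (0.30) or formoterol replicate 3 (0.31) or 4 (0.31). NPC1 has 1 other probe set, which differed the same way by 0.24, 0.56 and 1.2 at 6 h. Averaging both gave 0.34, 0.63 and 1.35 and ended the calls for each drug alone, also at 2 h with formoterol (0.69, adjusted p = 0.0511).

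ABCA1, which exports cholesterol to lipid-poor apolipoproteins and is an LXR target, rose with every treatment. At 6 h it was at 3.92, 3.99, 3.32 and 3.52 in untreated cells and at 5.53, 4.70, 5.49 and 5.36 with budesonide. With formoterol it was at 4.34, 4.72, 4.42 and 4.07, and with the combination at 5.82, 5.79, 6.26 and 6.33. Each treatment lay above every untreated array, and the combination above every array of either drug alone. It rose by 1.59 ± 0.20 with budesonide (adjusted p = 3.56e-09), 0.70 ± 0.20 with formoterol (adjusted p = 0.0226) and 2.36 ± 0.20 with the combination (adjusted p = 3.12e-15), the last 5.15-fold. At 18 h it was still higher by 1.53 ± 0.20 with budesonide and 1.42 ± 0.20 with the combination, and formoterol was not called.

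These ABCA1 values come from a single probe set, with a mean of 4.46 over the arrays. The other 2, with means of 2.41 and 1.95, lie under the lower quartile of 3.02 and moved by 0.07 to 0.16 with budesonide, 0.08 to 0.34 with formoterol and 0.03 to 0.24 with the combination at 6 h. The mean over its probe sets rose by 0.61, 0.37 and 0.88 in the same comparisons, and each stayed called. That mean contains the probe set used, so it is no separate evidence from the other 2. The formoterol call of the probe set used was lost without untreated replicate 3 (0.58) or 4 (0.65) or formoterol replicate 2 (0.59) or 3 (0.69). ABCG1, a related exporter, was not called in any comparison with untreated cells, and at 6 h it stood at 0.18 ± 0.11 with budesonide and 0.09 ± 0.11 with the combination. Without the arrays numbered 3 at 2 h it was called with budesonide at that time (0.40).

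MYLIP, an E3 ubiquitin ligase that sends lipoprotein receptors for degradation, rose with formoterol at 1 h and fell with budesonide at 2 h. At 1 h it was at 7.56, 7.40, 7.45 and 7.70 in untreated cells, 8.17, 8.02, 8.28 and 8.30 with formoterol, and 8.70, 8.22, 8.58 and 8.79 with the combination. Budesonide arrays, at 7.45, 7.10, 7.18 and 7.60, overlapped the untreated ones and were not called. The rise was 0.67 ± 0.11 with formoterol (adjusted p = 4.92e-05) and 1.04 ± 0.11 with the combination (adjusted p = 1.72e-10), the last 2.06-fold.

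At 2 h MYLIP stood at 7.55, 7.55, 7.69 and 7.74 in untreated cells and at 6.96, 6.83, 7.32 and 7.32 with budesonide. The groups did not overlap and it fell by 0.53 on the log2 scale (SE 0.11, adjusted p = 0.00135). At 6 h budesonide arrays at 7.59, 7.30, 7.43 and 7.80 overlapped the untreated arrays at 7.94, 7.79, 7.82 and 7.91, and that call (−0.34, adjusted p = 0.0369) was lost on leaving out each of 5 arrays singly. These were untreated replicates 1 (−0.31), 3 (−0.35) and 4 (−0.32) and budesonide replicates 2 (−0.26) and 3 (−0.30).

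**Figure D4:**
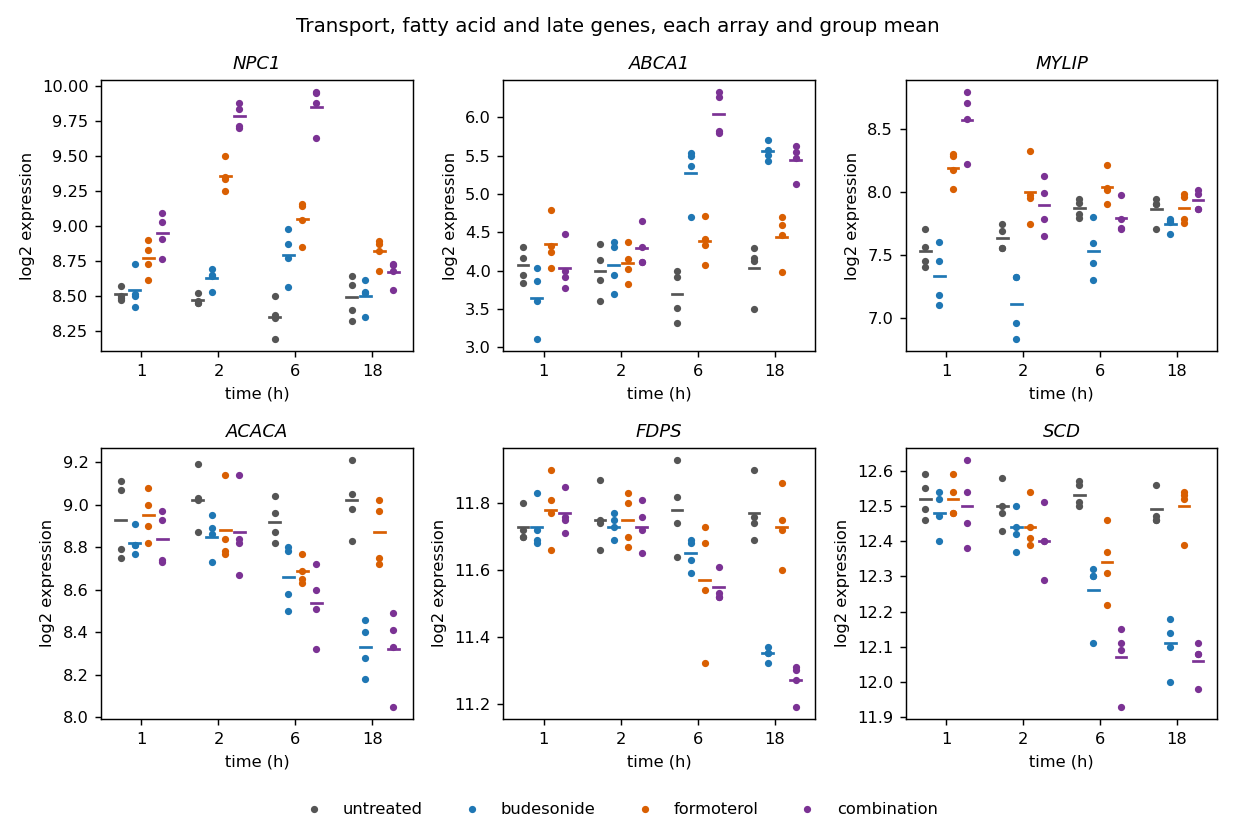
log2 intensity (vertical) of NPC1, ABCA1, MYLIP, ACACA, FDPS and SCD on each array at 1, 2, 6 and 18 h (horizontal) by treatment, with a line through the group means. NPC1 combination arrays at 6 h lie from 9.63 to 9.96 against 8.19 to 8.50 untreated, and ACACA budesonide arrays at 18 h lie from 8.18 to 8.46 against 8.83 to 9.21 untreated.

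Averaging all probe sets of a gene ended several calls without turning their direction. These were MSMO1 and SCD with budesonide at 6 h (−0.31 and −0.26), MSMO1 with budesonide at 18 h (−0.24) and with the combination at 2 h (−0.33), SCD with formoterol at 6 h (−0.21), NPC1 with the combination at 1 h (0.26) and STARD4 with the combination at 18 h (−0.39). Against budesonide at 6 h the combination lost ABCA1 (0.27) and SCD (−0.13), and against formoterol MSMO1 (−0.31) and SCD (−0.18).

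Few members changed before 6 h. At 1 h budesonide changed 0 members by limma (0.998% of all genes called, and 2 members at an unadjusted p under 0.05), formoterol raised MYLIP (1.02% of all genes called higher, 1.34% in either direction), and the combination raised MYLIP and NPC1 (0.44, adjusted p = 0.000166), where 1.63% of all genes were called higher, 1.13% lower and 2.76% in either direction. With the replicate number as a block, which paired the samples with formoterol at 1 h, 2 members were called there (1.94% of all genes), or 3 with the block within each time (3.07%), adding INSIG1 (0.25) and NPC1 (0.26). Direct comparison of the combination with budesonide gave NPC1 (0.41) and MYLIP (1.24) at 1 h (1.47% of all genes) and NPC1 (1.16) and MYLIP (0.78) at 2 h (2.83% of all genes called higher, 4.38% in either direction). The combination against formoterol changed 0 members at 1 h by limma (1.27% of all genes, and 2 members at an unadjusted p under 0.05) and 1 with the replicate number as a block, MYLIP (0.38, with 1.67% of all genes called, or 2.09% within each time).

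At 2 h budesonide lowered INSIG1 and MYLIP, where 2.26% of all genes were called lower, 1.69% higher and 3.94% in either direction. INSIG1 was at 12.13, 11.94, 11.83 and 12.05 in untreated cells and at 11.80, 11.45, 11.68 and 11.52 with budesonide. All 4 budesonide arrays lay below the untreated ones, and the difference was −0.37 ± 0.08 (adjusted p = 0.000639). The combination lowered HMGCS1 (−0.35, adjusted p = 0.0308) and MSMO1 (−0.25, adjusted p = 0.00359) and raised NPC1, where 5.65% of all genes were called lower, 3.84% higher and 9.49% in either direction. The HMGCS1 call was lost without untreated replicate 1 (−0.30) or 4 (−0.32) or combination replicate 2 (−0.31) or 4 (−0.29), and without combination replicate 1 the count was 5. Formoterol raised NPC1 alone (2.31% of all genes called higher, 2.29% lower and 4.6% in either direction), or 2 members without untreated replicate 4 or formoterol replicate 2. The combination differed from formoterol in INSIG1 (−0.32) and NPC1 (0.42), where 4.15% of all genes were called.

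Same-numbered samples deviated together in all comparisons at 2 h, and the replicate block called more members there, as it did over all genes. Budesonide then changed 5 members, adding MSMO1 (−0.18), SC5D (−0.23) and INSIG2 (−0.36), with the block over all times (5.45% of all genes called) or within each time (7.61%). Formoterol changed 3 (6.62% of all genes), or 4 within each time (9.03%), from INSIG2 (0.36), MYLIP (0.36) and IDI1 (0.23) besides NPC1. The combination changed 5 (12.6% of all genes), or 7 within each time (15.4%), adding MVK (−0.24), INSIG1 (−0.22), SCD (−0.10) and MYLIP (0.25). Against budesonide the combination changed 4 with either block (6.19% and 8.45% of all genes), adding MVK (−0.26) and INSIG2 (0.40), and against formoterol 4 (5.48% and 6.72%), adding SC5D (−0.27) and INSIG2 (−0.31). INSIG2, the second INSIG gene, thus stood lower with budesonide and higher with formoterol at 2 h under the block, and was not called without it.

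By 18 h no synthesis gene was called with formoterol without the replicate block, and the calls with budesonide included ACACA and FDPS. At 6 h with budesonide these stood at −0.26 (adjusted p = 0.0717) and −0.14 and were not called, though both were with the replicate block (adjusted p = 0.0291 and 0.0313). The change from 6 to 18 h was called for FDPS and not for ACACA (−0.43, adjusted p = 0.0701). Budesonide lowered 8 members and raised 3 (9.78% of all genes called lower, 8.56% higher, 18.3% in either direction). The combination lowered 12 and raised 3 (10.7% lower, 10.3% higher, 21% in either direction). Formoterol raised NPC1 alone by limma (1.11% of all genes called), with 6 members at an unadjusted p under 0.05.

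ACACA, acetyl-CoA carboxylase, which makes malonyl-CoA for fatty acid synthesis, was at 9.21, 8.98, 9.05 and 8.83 in untreated cells at 18 h. It was at 8.46, 8.28, 8.40 and 8.18 with budesonide and at 8.49, 8.33, 8.41 and 8.05 with the combination, below every untreated array, while formoterol arrays stood at 8.75, 8.72, 9.02 and 8.97. The differences were −0.69 ± 0.10 (adjusted p = 1.01e-07) with budesonide, −0.70 ± 0.10 with the combination (adjusted p = 5.47e-08) and −0.15 ± 0.10 with formoterol, which was not called. The other 2 probe sets of ACACA were lower by less, −0.51 to −0.31 with budesonide and −0.24 to −0.15 with the combination. At 6 h the ACACA call with the combination (−0.39) was lost when its probe sets were averaged (−0.19).

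FDPS, farnesyl diphosphate synthase, was at 11.69, 11.76, 11.74 and 11.90 in untreated cells at 18 h and at 11.37, 11.32, 11.35 and 11.35 with budesonide. Combination arrays stood at 11.30, 11.19, 11.27 and 11.31 and formoterol arrays at 11.75, 11.60, 11.72 and 11.86. Arrays with budesonide, alone or in combination, were separate from the rest. The differences were −0.42 ± 0.06 (adjusted p = 6.87e-08) and −0.50 ± 0.06 (adjusted p = 4.29e-10).

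SCD, the stearoyl-CoA desaturase, was at 12.46, 12.47, 12.46 and 12.56 in untreated cells at 18 h and at 12.08, 11.98, 12.11 and 12.08 with the combination. With budesonide it averaged 12.11 ± 0.08 (SD, n = 4), with 12.18 as its highest array. The treated arrays lay below all untreated ones, by −0.38 ± 0.05 (adjusted p = 5.69e-08) and −0.43 ± 0.05 (adjusted p = 2.16e-09). FADS1, a desaturase of polyunsaturated fatty acids, went the other way, at 10.16, 10.07, 10.07 and 10.22 in untreated cells and 10.64, 10.42, 10.52 and 10.56 with the combination. No array overlapped, and it rose by 0.29 ± 0.09 with budesonide and 0.40 ± 0.09 with the combination (adjusted p = 0.000196). With formoterol FADS1 stood at 0.27, and its lowest array, at 10.34, lay above every untreated one. That difference was not called without the replicate block. Limma called it with the block over all times (adjusted p = 0.00612, with 2.91% of all genes called). TM7SF2, a sterol reductase, also rose, by 0.26 ± 0.08 with budesonide and 0.29 ± 0.08 with the combination.

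HMGCS1 was at 12.04, 11.89, 11.52 and 12.07 in untreated cells at 18 h and at 11.30, 11.26, 11.27 and 11.70 with the combination. The groups overlapped, since untreated replicate 3 was low and combination replicate 4 high, and the difference was −0.50 ± 0.11 (adjusted p = 0.000315). IDI1, MSMO1 and INSIG1 were lower too, by −0.36, −0.22 and −0.43 with budesonide and −0.37, −0.27 and −0.48 with the combination. SQLE (−0.25), EBP (−0.17), STARD4 (−0.39) and ACAT2 (−0.25) were also called lower with the combination. With budesonide they were not called without the block, and with it SQLE and ACAT2 were called but EBP and STARD4 were not. Without the block, of the 4 only EBP differed between the combination and budesonide at 18 h.

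SREBF1 was lower at 18 h by −0.42 ± 0.16 with budesonide (adjusted p = 0.0499) and −0.41 ± 0.16 with the combination (adjusted p = 0.0486), both at the edge of the threshold. It was at 7.39, 7.03, 7.06 and 6.87 in untreated cells, 6.84, 6.72, 6.57 and 6.55 with budesonide and 6.89, 6.61, 6.60 and 6.61 with the combination. Untreated replicate 4 was the lowest of its group and overlapped the combination. The budesonide call was lost without untreated replicate 1 (−0.32), 2 (−0.44) or 3 (−0.43) or budesonide replicate 2 (−0.44), 3 (−0.38) or 4 (−0.38). The combination call was lost without untreated replicate 1 (−0.31), 2 (−0.43) or 3 (−0.42) or combination replicates 2, 3 or 4 (−0.39 each). Without the 4 arrays numbered 3 at 2 h, a choice made after they were seen, both differences were unchanged and the SE was 0.09. Limma then gave adjusted p = 0.000124 with budesonide and 0.000128 with the combination, where 19.5% and 22.1% of all genes were called. SREBF2 was not called in any comparison with untreated cells, at 0.02 with every treatment at 18 h.

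The other small calls with the combination at 18 h also turned on single arrays. SQLE lost its call without untreated replicate 3 (−0.22) or 4 (−0.20) or combination replicate 1 (−0.22) or 2 (−0.20). STARD4 lost it without the same arrays (−0.33, −0.30, −0.32 and −0.37), and EBP without untreated replicate 3 or combination replicate 2 (−0.15 each).

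Replicate numbers paired the samples with budesonide and with the combination at 18 h. Under the block budesonide changed 15 members (22.9% of all genes called), or 17 within each time (27.2%), adding SQLE (−0.14), HSD17B7 (−0.27), SC5D (−0.18) and ACAT2 (−0.12), and then FADS2 (−0.23) and FASN (−0.28). The combination changed 17 (25.5%), or 22 within each time (29.7%), including the fatty acid synthase gene FASN (−0.47), the desaturase gene FADS2 (−0.35), LSS (−0.28), NSDHL (−0.16) and NPC1 (0.18).

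At 18 h the combination differed from budesonide in EBP alone (−0.21, adjusted p = 0.0347, with 0.651% of all genes called). That call was lost without budesonide replicate 2 or 4 or any combination array (−0.22 to −0.18), and with the replicate block 2 members were called (1.98% of all genes, or 3.67% within each time), adding ACAT2. From formoterol the combination differed in 9 members, with ABCA1 higher (1.00) and FDPS, NSDHL, EBP, INSIG1, SREBF1, FADS2, SCD and ACACA lower, where 17.6% of all genes were called. Of these, NSDHL (−0.20), EBP (−0.16) and FADS2 (−0.48) were lost on leaving out single arrays. For NSDHL these were formoterol replicates 2, 3 and 4 and combination replicates 1, 2 and 4 (−0.20 to −0.18). For EBP they were formoterol replicates 3 (−0.16) and 4 (−0.12) and combination replicate 2 (−0.15), and for FADS2 formoterol replicates 1, 2 and 3 and combination replicates 2, 3 and 4 (−0.49 to −0.43). Without all arrays numbered 2 the count was 5.

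The change of each drug difference from 6 to 18 h was tested directly. With formoterol, MVK (0.63), NSDHL (0.56) and MSMO1 (0.40) moved back up, where 1.4% of all genes were called, and the median member moved by 0.26 against 0.03 for all genes. With the combination 9 members moved up and 3 down (9.95% of all genes called). HSD17B7 (0.82), MVK (0.63), SC5D (0.61), MSMO1 (0.60), HMGCS1 (0.52), IDI1 (0.48) and SQLE (0.39) moved up toward untreated, and TM7SF2 and FADS1 (0.48 each) moved up past it. NPC1 (−1.32), ABCA1 (−0.95) and FDPS (−0.27) moved down. With budesonide TM7SF2 (0.40) moved up and FDPS (−0.28) and NPC1 (−0.43) moved down (4.24% of all genes called).

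Several of these changes rested on single arrays. With the combination HMGCS1 lost its call without untreated replicate 1 (0.46) or combination replicate 3 (0.47) of 6 h, or untreated replicate 3 (0.40) or combination replicate 4 (0.41) of 18 h. SQLE lost it without untreated replicate 3 (0.36) or 4 (0.35) of 6 h or untreated replicate 1 (0.33) or combination replicate 3 (0.32) of 18 h. ABCA1 lost it without untreated replicate 3 (−0.83) or combination replicate 4 (−0.86) of 6 h or untreated replicate 1 (−0.86) or combination replicate 3 (−0.84) of 18 h. FDPS lost it without untreated replicate 1 or 2 or combination replicate 4 of 6 h, or untreated replicate 4 or combination replicate 2 of 18 h (−0.25 to −0.22). With budesonide all 3 calls were lost on leaving out some array, TM7SF2 without budesonide replicate 4 of 6 h (0.36), NPC1 without 5 arrays (−0.40 to −0.37) and FDPS without 9 (−0.29 to −0.24). With probe sets averaged, the changes of TM7SF2 (0.28) and NPC1 (−0.27) with budesonide, MSMO1 (0.50) with formoterol, and SQLE (0.19) and ABCA1 (−0.35) with the combination were not called. The budesonide count was 1 without untreated replicate 1 of 6 h or budesonide replicate 2 of 18 h.

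In untreated cells 0 members differed between 18 and 1 h by limma (0.364% of all genes called), with 1 at an unadjusted p under 0.05. With the replicate number as a block MYLIP was called (0.34, with 2.12% of all genes called).

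Replicate 3 at 2 h stood apart in all 4 treatments for part of the list. FASN was at 9.04 in untreated cells, 8.6 with budesonide, 8.80 with formoterol and 8.70 with the combination on these arrays, against 7.44 to 7.71 on the other arrays of 2 h. LSS was at 9.73, 9.76, 9.73 and 9.78 on them, against 8.41 to 8.67 on the others, and FADS2 at 9.97 to 10.14 against 8.98 to 9.17. SREBF1 (7.72 to 8.10), MVD (8.23 to 8.36), DHCR7 (10.08 to 10.21) and SREBF2 (6.95 to 7.16) were also highest there, whereas HMGCS1, SQLE, MSMO1 and INSIG1 did not stand out. The difference between the 3′ and 5′ probe sets of ACTB, a measure of RNA quality, was 1.35 to 1.61 on those 4 arrays, the highest value of its group in each treatment at 2 h. It was 0.57 to 1.24 on the arrays numbered 3 at the other times, where replicate 1 was highest in all 12 groups, and 0.50 to 2.21 over all arrays. The residual SD of the 4 arrays was 0.183 to 0.206, against 0.134 to 0.174 on the other arrays numbered 3. The highest of all arrays was 0.232, on formoterol replicate 4 at 18 h. The part of RNA quality in these values was not tested.

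**Figure D5:**
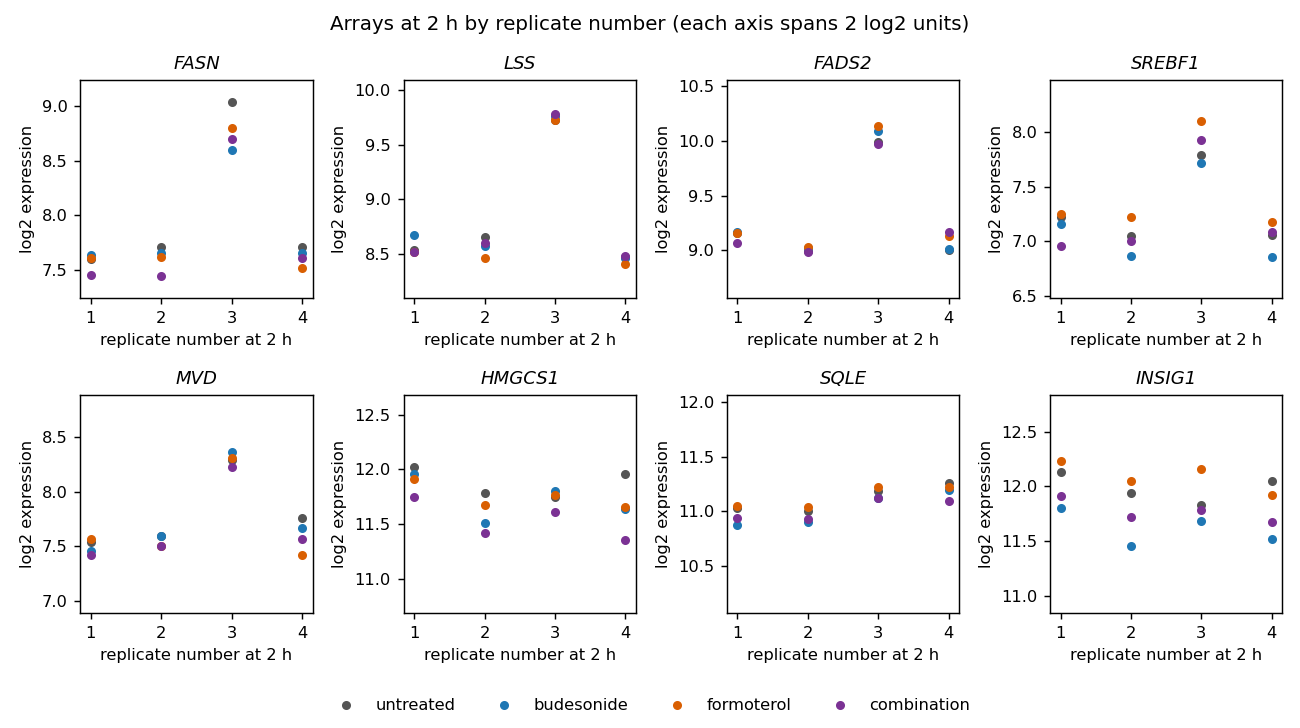
log2 intensity (vertical) of FASN, LSS, FADS2, SREBF1, MVD, HMGCS1, SQLE and INSIG1 at 2 h by replicate number (horizontal), with a point for each treatment. Replicate 3 is highest in every treatment for FASN (8.6 to 9.04 against 7.44 to 7.71) and LSS (9.73 to 9.78 against 8.41 to 8.67), and not for HMGCS1, SQLE or INSIG1.

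Since the fit shares its estimate of the spread over all arrays, these 4 arrays also bear on the other times. Left out, a choice made after they were seen, no call of a member was lost. The combination at 6 h then changed 24 members (19.6% of all genes), 22 of them lower, adding FASN (−0.38), SREBF1 (−0.32), DHCR7 (−0.30), FADS2 (−0.22) and TM7SF2 (−0.19). At 18 h it changed 19 (22.1% of all genes), adding FASN (−0.47), FADS2 (−0.35), LSS (−0.28) and SC5D (−0.24). Budesonide at 6 h added SREBF1 (−0.31) and ACACA (−0.26).

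Other genes around the pathway were counted in 4 lists, to be read against the shares of all genes called at 6 h. These were 6.12% higher and 8.12% lower with budesonide, 2.76% and 2.06% with formoterol, and 8.61% and 9.95% with the combination. Of the 11 measured of 12 listed genes of SREBP processing and sterol-regulated degradation, 0 rose and 1 fell with budesonide at 6 h, 0 and 1 with formoterol, and 2 and 1 with the combination. RNF145, a ligase gene of this list, fell by 0.43 on the log2 scale with formoterol at 6 h, and SCAP rose by 0.49 with the combination at 18 h. Of 11 (of 13) other sterol and isoprenoid enzymes, 2 fell with budesonide, 1 with formoterol and 1 with the combination at 6 h, and 0 rose. LBR, a sterol reductase of the nuclear envelope, stood at −0.45 with formoterol and −0.81 with the combination.

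Of 27 (of 31) genes of fatty acid supply, elongation and activation, 4 rose and 6 fell with budesonide at 6 h, 1 and 3 with formoterol, and 6 and 7 with the combination. ACSL1, a long-chain acyl-CoA synthetase, rose by 2.23 with budesonide and 2.64 with the combination at 6 h and was still 1.80 higher with budesonide at 18 h. ACSL5, of the same family, rose by 1.18 and 1.62 at 6 h, and with the combination by 1.83 at 1 h and 2.85 at 2 h. Its untreated mean at 6 h was 3.35, close to the lower quartile of 3.02 over all probe sets. LPIN1, a phosphatidate phosphatase, rose by 1.14 with budesonide and 1.01 with the combination but fell by 0.83 with formoterol. The elongase gene ELOVL6 fell by 0.59 with budesonide and 0.87 with the combination, and ACSS2, an acetyl-CoA synthetase, by 0.66 with formoterol and 0.82 with the combination. ME1, malic enzyme, fell at 18 h by 1.34 with budesonide and 1.38 with the combination.

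Of 23 (of 24) genes of cholesterol transport, storage and LXR signalling, 1 rose and 2 fell with budesonide at 6 h, 0 and 2 with formoterol, and 2 and 4 with the combination. NCEH1, a cholesteryl ester hydrolase, fell by 1.36 with budesonide and 1.06 with the combination at 6 h and by 1.43 and 1.24 at 18 h. SOAT1, which esterifies cholesterol, fell by 0.64 with budesonide at 6 h, and CAV1, a caveolar protein, rose by 0.64 and 0.56 with budesonide and the combination. CH25H, which makes an oxysterol, rose by 2.01 with the combination at 1 h from an untreated mean of 2.22, under 3.02, the lower quartile over all probe sets.

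Within groups the members did not move together as a whole. The median correlation between pairs of members, over deviations of the 64 arrays from their group means, was 0.03, against 0.06 for bright genes in general. After the replicate number within each time was removed as well, it was 0.09 against 0.03. Among 15 picked genes of sterol synthesis, with INSIG1 and STARD4, it was 0.02 before that removal and 0.21 after it. All of these but DHCR7 were called lower with the combination at 6 h, and PMVK and TM7SF2 were left out. They are thus not a set chosen apart from these data. The pairs with the highest values before that removal were LSS with FADS2 (0.92) and LSS with FASN (0.91), the genes that stood out on replicate 3 at 2 h. The arrays share replicate numbers and normalization, so these values describe the arrays and carry no p.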

How the data were processed

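The deposited values are log2 intensities of 49395 probe sets on 64 arrays, made by the authors with RMA per the submitters' processing notes, which give no version. Array medians ran from 4.87 to 4.95, and joint normalization, if used, hides any shift common to most genes. A total of 44994 probe sets had 1 symbol, 1832 several and 2569 none, in the platform annotation, and each of 18132 genes was represented by its probe set of highest mean across the arrays. Of the members' probe sets, 7 (PMVK, LSS, HSD17B7, EBP, INSIG2, STARD4 and FADS2) carry the suffix of sets whose probes can match other transcripts, and 9 (HMGCS1, IDI1, FDPS, TM7SF2, MSMO1, SC5D, INSIG1, SCD and MYLIP) that of sets shared by several transcripts. FDFT1 and CYP51A1 had no probe set with a single matching symbol and were not analysed here.

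limma 3.58.1 in R 4.3.3 fitted 16 group means with an intensity trend (48 residual degrees of freedom), and 28 comparisons were each adjusted by Benjamini-Hochberg over all genes, two-sided, at 0.05. The script was tested on simulated data. The members and gene lists were chosen with earlier results of these data known. All members could be named, and of the other pathway genes at most 4 in each direction per comparison. What p-values measure here is the spread among these samples, which may be partly technical, and the number of arrays limits their precision.

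The same replicate numbers occur in every group. The correlation of deviations from the group means was above 0.1 in every same-numbered pair, with means from 0.238 to 0.442, with budesonide at 2 and 18 h, formoterol at 1 and 2 h, the combination at 2 and 18 h, the combination against budesonide at 2, 6 and 18 h and against formoterol at 1 and 2 h, the interaction at 2 h, and untreated cells at 18 against 1 h. The labels do not state what the number stands for. It was read as pairing there only in the alternative fits with a replicate block. The main fit had no such block, so its adjusted p and SE do not use the pairing. Alternatives tried were a replicate block (over all times or within each time), median centring, repeated quantile normalization, a filter on dim genes, eBayes without the trend, probe sets averaged per gene, the compared arrays alone, and each array or replicate number left out. Promoters came from RefSeq (GRCh38.p14), in which 4 members had no entry used.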

Additional observations from a re-analysis of the deposited data

Results flagged for a closer look

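In 35 of 480 groups of 4 arrays (7.29%, where chance gives about 5%), the highest or lowest array of a member was separated from the others by more than Dixon's 95% critical share of the range of its group. Of these, a large part lay at 2 h on the arrays numbered 3. LSS stood at 9.73 in untreated cells, 9.76 with budesonide, 9.73 with formoterol and 9.78 with the combination, and FASN at 9.04, 8.6, 8.80 and 8.70. FADS2 stood at 9.99, 10.09 and 10.14 in untreated, budesonide and formoterol arrays. MVD (8.31), SREBF1 (8.10) and SREBF2 (7.16) stood out with formoterol, and SREBF1 (7.93) and DHCR7 (10.08) with the combination.

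The other separated arrays at 1 and 2 h were IDI1 in untreated cells at 1 h (highest, 10.67), and at 2 h NPC1 in untreated cells (highest, 8.52), TM7SF2 (highest, 8.38), INSIG2 (highest, 8.62) and ABCG1 (lowest, 3.85) with budesonide, and INSIG2 with the combination (highest, 9.03). At 6 h they were MVK with formoterol (lowest, 6.43), SCD with budesonide (lowest, 12.11) and FDPS with the combination (highest, 11.61). At 18 h they were SREBF2 (highest, 7.0), SCD (highest, 12.56) and MYLIP (lowest, 7.70) in untreated cells, and MVK with budesonide (lowest, 6.83). With formoterol at 18 h they were PMVK (lowest, 8.20), FADS1 (lowest, 10.34) and SCD (lowest, 12.39), and with the combination HMGCS1 (highest, 11.70), TM7SF2 (highest, 8.59) and SREBF1 (highest, 6.89).

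The difference from untreated cells changed between 6 and 18 h for 18 pairs of member and treatment, by limma's test of the change itself. With budesonide the change was −0.28 for FDPS, 0.40 for TM7SF2 and −0.43 for NPC1. With formoterol it was 0.63 for MVK, 0.40 for MSMO1 and 0.56 for NSDHL. With the combination it was 0.52 for HMGCS1, 0.63 for MVK, 0.48 for IDI1, −0.27 for FDPS, 0.39 for SQLE and 0.48 for TM7SF2. It was also 0.60 for MSMO1, 0.82 for HSD17B7, 0.61 for SC5D, 0.48 for FADS1, −1.32 for NPC1 and −0.95 for ABCA1.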

How the results depend on the processing

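No member named as called changed direction under any alternative run, and 561 of 643 counts of members called under an alternative stayed within 1.5 times the count reported. The replicate block, in unpaired comparisons a hint from the data only, raised counts of members and of all genes, with budesonide at 6 h from 14.2% of all genes to 18.7%, or 22.5% within each time. With the block over all times and then within each time, budesonide gave 5 and 5 at 2 h and 15 and 17 at 18 h, formoterol 2 and 3 at 1 h, 3 and 4 at 2 h and 2 and 5 at 18 h, and the combination 5 and 7 at 2 h. The combination against budesonide gave 4 and 4 at 2 h and 2 and 2 at 18 h, and against formoterol 1 and 1 at 1 h, 4 and 4 at 2 h and 12 and 17 at 18 h. The interaction gave 1 and 1 at 1 h, 0 and 1 at 2 h and 0 and 1 at 6 h. The change from 6 to 18 h gave 5 and 6 with budesonide, 7 and 13 with formoterol and 14 and 20 with the combination. Untreated cells at 18 against 1 h gave 1 with the block over all times, and the block within each time was not run there, since each block lies within a time. At 6 h the block, unpaired there, gave 14 and 15 with budesonide, 19 and 22 with formoterol, and 21 and 25 with the combination.

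Repeated quantile normalization gave 2 with formoterol at 2 h and 0 for the combination against budesonide at 18 h, where no intensity trend also gave 0. Without dim genes the counts were 2 with formoterol, 5 with the combination and 4 against budesonide, all at 2 h. The mean of all probe sets gave 0 with formoterol at 18 h, 1 with the combination at 1 h, 1 against budesonide at 1 h and 1 for the budesonide change from 6 to 18 h. The compared arrays alone gave 0 with formoterol at 18 h and 1 for the budesonide change. Without all 2 h replicate 3 arrays, chosen after seeing the data, budesonide at 2 h gave 4. The causes of these shifts were not tested.

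Leaving out single arrays or replicate numbers gave, at 1, 2, 6 and 18 h, counts of 0 to 0, 1 to 3, 8 to 11 and 8 to 12 with budesonide, 1 to 1, 1 to 2, 6 to 16 and 0 to 2 with formoterol, and 2 to 2, 1 to 5, 17 to 21 and 11 to 17 with the combination. The combination against budesonide gave 1 to 2, 2 to 3, 11 to 15 and 0 to 1, and against formoterol 0 to 1, 1 to 3, 9 to 10 and 5 to 10. The interaction gave 0 to 1 at 1 h and 0 at the other times, and untreated cells 0. The change from 6 to 18 h gave 0 to 3 with budesonide, 2 to 4 with formoterol and 9 to 13 with the combination.

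Of 138 pairs of member and comparison named as called, 23 lost the call with the mean of all probe sets, 14 with the compared arrays alone, 7 with repeated quantile normalization, 7 without the intensity trend, 6 with median centring and 0 with either block.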
